A study of Mus musculus with 14 samples.

Results

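The genes described are 9 genes of iron handling in mouse liver sinusoidal endothelial cells (LSECs), the cells that line the liver's smallest vessels. They are the iron exporter Slc40a1 (ferroportin), the transferrin receptor Tfrc, the ferritin chains Fth1 and Ftl1, the iron transporters Slc11a1 and Slc11a2, the transferrin receptor partner Hfe and the ferroxidases Cp and Heph. The members were chosen by name, with earlier results of these data known, and each symbol was matched to 1 row of the deposited table. Thus 9 of 54524 genes are described, and all 9 passed the filter on low counts that left 26626 genes for testing. RNA was sequenced from LSECs of male Balb/c mice: 4 samples from healthy untreated mice, 2 taken 1 day after a single injection of carbon tetrachloride (CCl4), 4 taken after 3 days and 4 after 7 days. CCl4, a solvent that kills hepatocytes around the central vein, was given into the peritoneum in mineral oil at 0.5 µl per g of body weight. The labels give an age of 10 to 12 weeks, while the study's methods give another range. Cells were sorted as CD32-positive and negative for F4/80, ultraviolet autofluorescence and propidium iodide, and the methods add CD45 to the negative gate. Day 1 has 2 samples because others fell short in RNA integrity. The samples of a group are numbered in the labels, but the sources used here do not say that each came from a separate mouse, so p-values measure the spread between samples, which may be technical in part.

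Iron reaches most cells bound to transferrin, which Tfrc carries in by endocytosis. Iron that is not used is stored in ferritin, a shell built of heavy (Fth1) and light (Ftl1) chains. Ferroportin, encoded by Slc40a1, is the known iron exporter of mammalian cells, and the ferroxidases Cp and Heph oxidize iron as it leaves so that transferrin can bind it. In the liver, LSECs are known as a source of the BMP ligands that induce hepcidin in hepatocytes, and hepcidin in turn removes ferroportin from cell surfaces.

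Several of these transcripts carry an iron-responsive element, a hairpin that iron regulatory proteins bind when iron is low. In the 5′ UTR such binding blocks translation, and in the 3′ UTR it protects the transcript from decay, so the hairpins are shown with the UTR that holds them. All UTRs of protein-coding transcripts in GENCODE vM21 (GRCm38) were searched on the transcribed strand for a C, an arm of 5 bases, the loop CAGTGN, and 5 bases that pair with the arm (G with T allowed). The match was allowed 1 extra base in the second arm only where this is stated as bulged. The windows are printed in 30 bases, 5′ to 3′, with the loop in capitals.
Fth1 5′ UTR, chr19:9982732-9982761, plus strand: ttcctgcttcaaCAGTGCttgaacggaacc
Ftl1 5′ UTR, chr7:45459778-45459807, minus strand: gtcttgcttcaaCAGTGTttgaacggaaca
Slc40a1 5′ UTR, chr1:45925464-45925493, minus strand: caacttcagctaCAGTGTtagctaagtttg
Tfrc 3′ UTR, chr16:32631219-32631248, plus strand: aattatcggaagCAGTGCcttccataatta
Tfrc 3′ UTR, chr16:32631598-32631627, plus strand: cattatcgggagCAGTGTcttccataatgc
Tfrc 3′ UTR, chr16:32631663-32631692, plus strand: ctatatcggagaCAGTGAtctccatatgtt
Tfrc 3′ UTR, chr16:32631710-32631739, plus strand: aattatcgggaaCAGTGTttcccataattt
Slc11a2 3′ UTR, bulged, chr15:100395152-100395181, minus strand: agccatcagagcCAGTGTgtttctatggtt

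The pattern without a bulge was found in the 5′ UTR of 31 of 21901 protein-coding genes (0.142%), with Fth1, Ftl1 and Slc40a1 among them, and in the 3′ UTR of 129 (0.589%), with Tfrc among them. The bulged form was found in the 3′ UTR of 233 genes (1.06%), and the Slc11a2 match lies in transcript Slc11a2-205, 1 of several annotated ends of that gene. No match was found in Slc11a1, Hfe, Cp or Heph, which says only that these letters are not in their annotated UTRs. A match is a description of the sequence and not a measured binding site.

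The deposited values are whole-number read counts per gene, with totals of 46401496 to 103912264 per sample. Levels are given as CPM, counts scaled to a common library total with TMM-adjusted library sizes. Genes were tested with edgeR's quasi-likelihood test over all 14 samples, and a gene was called where its adjusted p (Benjamini-Hochberg over 26626 genes) was under 0.05. The LSEC label was checked with 12 marker genes, among them the scavenger receptor Stab2 at 947 to 2363 CPM over all samples, and the markers summed to 22442 to 25950.5 CPM in healthy LSECs, against 14443 and 17309 CPM at day 1. Day 3 samples held 12609 to 17946 CPM of them and day 7 samples 12522 to 18276.5 CPM. Of the 12, Lyve1 and Clec1b were called higher and 3 lower at day 1, Lyve1 higher and 3 lower at day 3, and none at day 7. No marker of LSECs or of the other cell types checked was at 0 in all samples of any group. The correlation of log2 CPM between samples of a group was 0.942 to 0.974 in healthy LSECs and 0.972 at day 1, while day 3 samples correlated at 0.875 to 0.963 and day 7 samples at 0.951 to 0.964. At day 3, samples 1 and 2 had counts on 34678 and 34768 genes and samples 3 and 4 on 28203 and 22986, and no batch label separates them. In bulk samples fewer cells of a type and less RNA per cell cannot be told apart.

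Slc40a1, Hfe and Heph fell at day 1, Slc40a1 and Hfe fell and Tfrc rose at day 3, and no member passed the test at day 7. In the comparison of day 1 with healthy LSECs 3 of 9 members were called (background 4.06% of the tested genes), all of them lower (background 1.64% called lower). At day 3 again 3 of 9 were called (background 7.19%), 2 lower (background 2.58%) and 1 higher (background 4.62%). At day 7, 0 of 9 were called by edgeR (background 3.18%), with 3 members under an unadjusted p of 0.05, 1 called by DESeq2 and 5 by limma-voom. The 3 comparisons share the same 4 healthy samples, so their counts are not independent. The members were also chosen with earlier results of these data known, so the background shares beside them are no test of the set. The median log2 fold change of the 9 members was 0.09 at day 1, 0.56 at day 3 and 0.24 at day 7, beside -0.03, 0.18 and 0.02 over all tested genes.

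**Figure D1:**
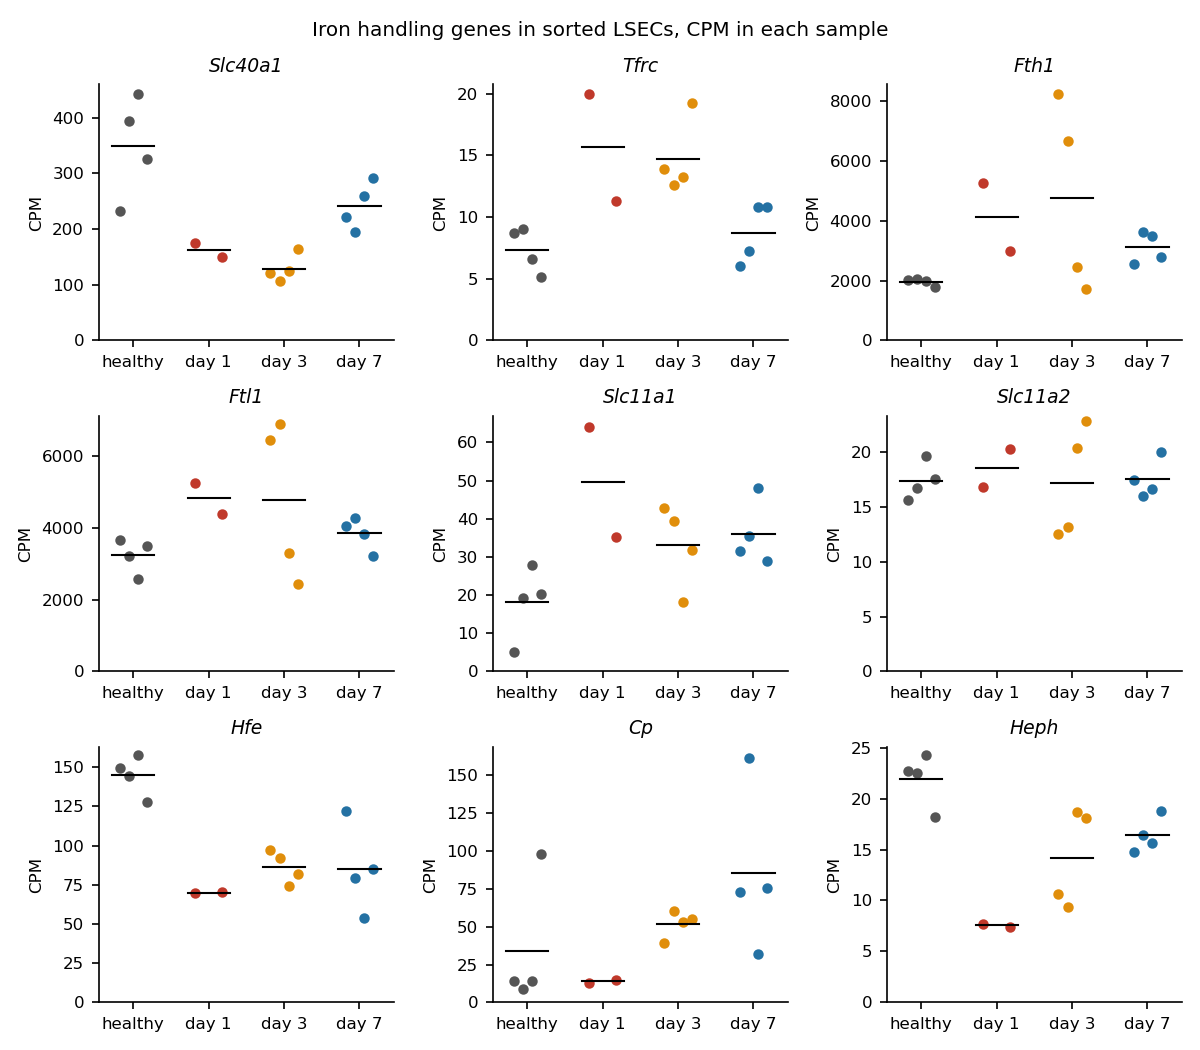
CPM (vertical axis, from 0) of the 9 iron handling genes in each sample, by group (horizontal axis). Points are samples and lines are group means. Slc40a1 and Hfe lie below healthy LSECs in every day 1 and day 3 sample, Heph does so at day 1, Tfrc lies above healthy LSECs in every day 1 and day 3 sample, and the day 3 samples split in Fth1, Ftl1, Slc11a2 and Heph.

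Compared per kilobase of annotated exon, the ferritin chains were far above the other members. In healthy LSECs Ftl1 stood at 2412 ± 352 CPM per kb (SD, n = 4) and Fth1 at 564 ± 36.3. Hfe followed at 40.6 ± 3.56 CPM per kb and Slc40a1 at 38.8 ± 10.1, and these neighbours overlapped. Slc11a1 (4.90 ± 2.57 CPM per kb), Cp (3.52 ± 4.47), Heph (2.86 ± 0.343) and Slc11a2 (2.74 ± 0.265) overlapped one another as well. Tfrc was the lowest member at 1.19 ± 0.295 CPM per kb, and its range overlapped those of Cp and Slc11a1 but not those of Slc11a2 or Heph. At day 3 Fth1 overlapped Ftl1, and Hfe, at 20.8 to 27.2 CPM per kb, no longer overlapped Slc40a1, at 11.8 to 18.2. Tfrc at 2.03 to 3.11 CPM per kb then overlapped both Slc11a2 and Heph. The exon length used is the union of all annotated transcripts, so levels of genes with long rare exons are understated on this scale.

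Slc40a1 (ENSMUSG00000025993, chr1:45908068-45926523, GRCm38), the exporter, had the lowest adjusted p of the 9 members at day 3. Its level was 233, 395, 443 and 327 CPM in the 4 healthy samples, 174 and 150 CPM at day 1, 122, 106, 125 and 164 CPM at day 3, and 222, 195, 259 and 292 CPM at day 7. Every day 1 and day 3 sample lay below every healthy sample, while the day 7 samples overlapped with healthy samples and lay above all day 3 samples. Against healthy LSECs the log2 fold change was -1.11 at day 1 (SE 0.28, adjusted p = 0.0403) and -1.43 at day 3 (SE 0.22, adjusted p = 0.00281), a level 0.370 times that of healthy LSECs. At day 7 it was -0.53 (SE 0.22, adjusted p = 0.183). The call at day 3 was kept in all 19 alternatives run, without day 3 samples 1 and 2 included (-1.30, adjusted p = 0.0161). The call at day 1 was lost with library size only, no filter or the 2 groups alone (adjusted p 0.0534 to 0.0628), and without healthy sample 2, 3 or 4 or without either day 1 sample (log2 fold changes -0.97 to -1.25, adjusted p 0.0801 to 0.354).

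Kupffer cells, the resident liver macrophages, are known for high ferroportin, so their markers are given beside Slc40a1. The summed level of 12 Kupffer cell and macrophage markers was 515 to 2431 CPM in healthy LSECs, 2884 and 1399 at day 1, 1089 to 2508 CPM at day 3 and 1125 to 2369 CPM at day 7. None of the 12 was called at day 1, and 1 of 12 (Cd68) was called at day 3 and at day 7, in each case higher. Clec4f, the marker that defines Kupffer cells, ranged from 58.9 to 554 CPM in healthy LSECs, 230 to 360 CPM at day 1, 66.5 to 227 CPM at day 3 and 109 to 349 CPM at day 7. The markers in this sum did not all differ in the same direction. Mean Clec4f was 391 CPM in healthy LSECs and 142 CPM at day 3, and mean Timd4 32.0 and 14.6 CPM. Mean Adgre1 was 39.5 and 89.8 CPM, and mean Csf1r 121 and 143 CPM. Healthy sample 1 had the lowest marker sum and the lowest Slc40a1 of the healthy group. Day 3 samples went the other way. Samples 1 and 2 had the highest sums of that day (2508 and 2306 CPM) with Slc40a1 at 122 and 106 CPM, and sample 4 had the highest Slc40a1 (164 CPM) with a sum of 1142 CPM. The LSEC markers, given above, also summed to less in every injured sample than in any healthy sample, and the part of either cell type in the Slc40a1 difference was not tested.

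Tfrc (ENSMUSG00000022797, chr16:32608920-32632794), the receptor that brings in transferrin-bound iron, was measured at 8.67, 9.05, 6.59 and 5.16 CPM in healthy LSECs. It was at 20.0 and 11.3 CPM at day 1, at 13.9, 12.6, 13.2 and 19.3 CPM at day 3, and at 6.03, 7.22, 10.8 and 10.9 CPM at day 7. All day 1 and day 3 samples lay above all healthy samples, and the day 7 samples overlapped with them. The log2 fold change was 1.09 at day 1 (SE 0.33, adjusted p = 0.0898), 1.00 at day 3 (SE 0.28, adjusted p = 0.0484) and 0.24 at day 7 (SE 0.28, adjusted p = 0.666). Leaving out any 1 of the 8 samples ended the day 3 call (log2 fold changes 0.76 to 1.11, adjusted p 0.0555 to 0.173). So did library size only, no filter, the 2 groups alone and leaving out day 3 samples 1 and 2 (adjusted p 0.0518 to 0.146).

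The ratio of Slc40a1 to Tfrc in a sample does not depend on the scaling of the libraries. This ratio was chosen after the values of both genes were seen, so it is a description with no test. Slc40a1 CPM stood at 26.8, 43.6, 67.2 and 63.3 times Tfrc CPM in healthy LSECs, at 8.71 and 13.3 times at day 1, at 8.77, 8.45, 9.42 and 8.52 times at day 3, and at 36.9, 27.0, 24.0 and 26.9 times at day 7. The day 3 samples, which split in other members, had an SD of 0.0713 in this ratio on the log2 scale (n = 4), against 0.609 in healthy LSECs (n = 4). The day 7 samples lay above every day 1 and day 3 sample and overlapped with the healthy samples.

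**Figure D2:**
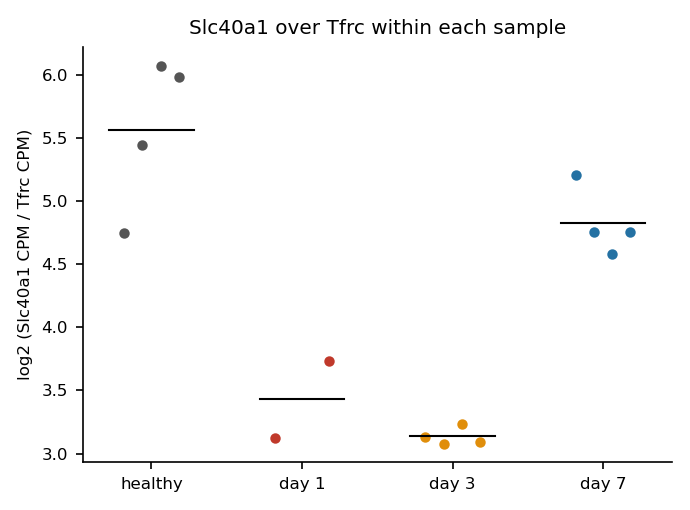
Log2 ratio of Slc40a1 CPM to Tfrc CPM in each sample (vertical axis, not from 0) by group (horizontal axis). Points are samples and lines are group means, and the means are 5.56 in healthy LSECs, 3.43 at day 1, 3.13 at day 3 and 4.82 at day 7.

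Hfe (ENSMUSG00000006611, chr13:23702034-23710854) encodes the hemochromatosis protein, which binds the transferrin receptors and takes part in iron sensing. It was at 149, 145, 158 and 128 CPM in healthy LSECs, at 69.5 and 70.5 CPM at day 1, at 97.2, 92.0, 74.4 and 81.9 CPM at day 3, and at 122, 79.4, 54.0 and 85.2 CPM at day 7. Hfe was the 1 member for which every sample of every injured group lay below every healthy sample. The LSEC marker sums, given above, also lay lower in every injured sample than in any healthy sample. Their part in the Hfe difference was not tested. Its log2 fold changes were -1.05 at day 1 (SE 0.27, adjusted p = 0.0415), -0.75 at day 3 (SE 0.21, adjusted p = 0.0451) and -0.77 at day 7 (SE 0.21, adjusted p = 0.0614). Leaving out any 1 of the 6 samples ended the day 1 call (-1.01 to -1.13, adjusted p 0.0618 to 0.424), as did library size only and no filter (adjusted p 0.0541 and 0.0693). The day 3 call was lost without healthy sample 1, 2 or 3 or day 3 sample 2 or 3 (-0.70 to -0.84, adjusted p 0.0531 to 0.112), without day 3 samples 1 and 2 together (-0.91, adjusted p = 0.0554) and with library size only (adjusted p = 0.0786). At day 7 Hfe was called without day 7 sample 1 (-0.99, adjusted p = 0.00795), the highest of its group.

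The membrane ferroxidase Heph (hephaestin, ENSMUSG00000031209, chrX:96455359-96574485) was the member with the lowest level at day 1 relative to healthy LSECs. Its values were 22.8, 22.5, 24.3 and 18.2 CPM in healthy LSECs, 7.69 and 7.43 CPM at day 1, 10.6, 9.39, 18.7 and 18.1 CPM at day 3, and 14.8, 16.4, 15.7 and 18.8 CPM at day 7. Both day 1 samples lay below all other samples, and at day 3 samples 1 and 2 lay low while samples 3 and 4 lay near the lowest healthy sample. Heph gave log2 fold changes of -1.54 at day 1 (SE 0.30, adjusted p = 0.0117), -0.63 at day 3 (SE 0.23, adjusted p = 0.125) and -0.42 at day 7 (SE 0.23, adjusted p = 0.313). The day 1 call was lost only without day 1 sample 1 or 2 among the 16 alternatives (-1.59 and -1.53, adjusted p = 0.257 and 0.153). At day 3 Heph was called without day 3 sample 4 (-0.83, adjusted p = 0.0459), and without day 3 samples 1 and 2 its log2 fold change was -0.28 (adjusted p = 0.318). The part of the lower LSEC marker sums after injury, given above, in the Heph difference was not tested.

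**Figure D3:**
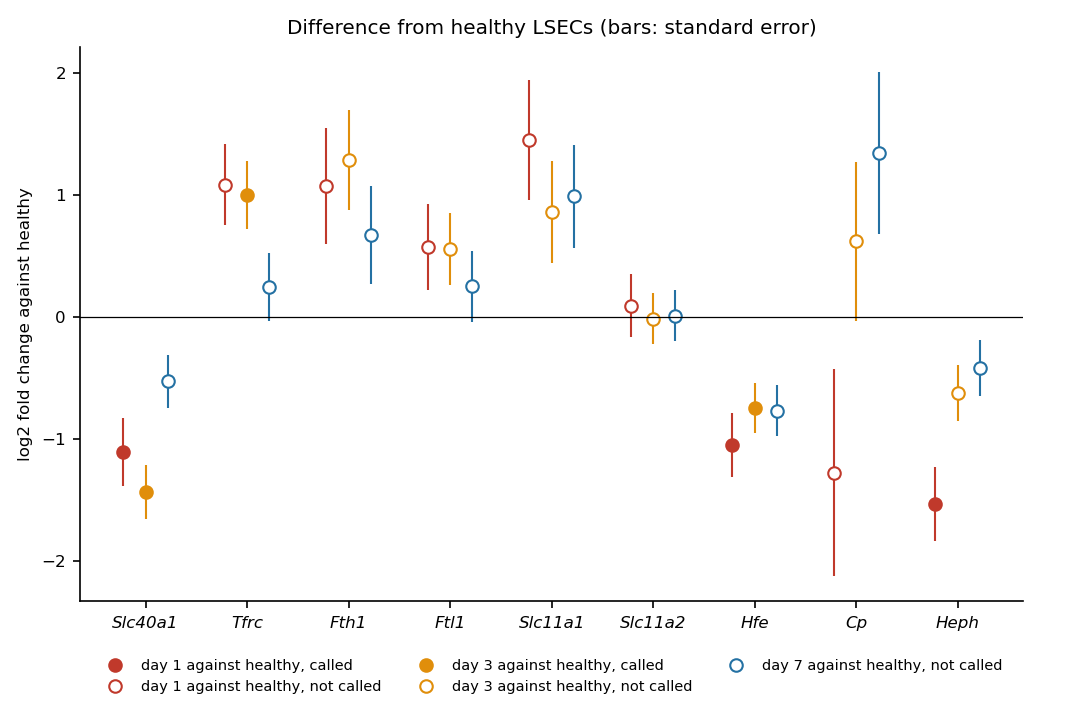
Log2 fold change against healthy LSECs (vertical axis) of the 9 members (horizontal axis) at days 1, 3 and 7, with bars for the standard error. Filled points passed an adjusted p of 0.05 in edgeR's quasi-likelihood test: Slc40a1, Hfe and Heph at day 1 and Slc40a1, Tfrc and Hfe at day 3.

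The secreted ferroxidase Cp (ceruloplasmin, ENSMUSG00000003617, chr3:19957054-20009145), a plasma protein made mainly by hepatocytes, did not pass the test on any day. Its level was 13.8, 9.01, 14.2 and 97.6 CPM in healthy LSECs, 12.8 and 15.01 CPM at day 1, 38.9, 60.0, 53.2 and 54.8 CPM at day 3, and 72.7, 161, 32.1 and 75.7 CPM at day 7. Healthy sample 4 stood far above the other healthy samples. With it the log2 fold changes were -1.28 at day 1 (SE 0.85, adjusted p = 0.493), 0.62 at day 3 (SE 0.66, adjusted p = 0.633) and 1.34 at day 7 (SE 0.66, adjusted p = 0.262). Without it they were 0.15 (adjusted p = 0.963), 1.97 (adjusted p = 0.0252) and 2.83 (adjusted p = 0.0120). The 12 hepatocyte markers summed to 10986 CPM in healthy sample 4 and to 261 to 495 CPM in the other healthy samples. They summed to 45.2 and 176 CPM at day 1, 1047 to 3597 CPM at day 3 and 993 to 7784 CPM at day 7, none of the 12 was called on any day, and their part in the Cp levels was not tested. An exon of Cp shares 108 bases with Hps3 on the other strand, and the use of strand in counting is not given in the sources used here.

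The ferritin chains were the most abundant members and varied most at day 3. Fth1 (ENSMUSG00000024661, chr19:9980598-9985098), the heavy chain with ferroxidase activity, was at 2034, 2038, 1985 and 1772 CPM in healthy LSECs and at 5262.5 and 2977 CPM at day 1. At day 3 it was at 8235, 6664, 2451 and 1734 CPM, and at day 7 at 2552, 3624, 3502 and 2783 CPM. All day 1 and day 7 samples lay above all healthy samples, whereas at day 3 sample 4 lay below them. Its log2 fold changes against healthy LSECs were 1.07 at day 1 (SE 0.48, adjusted p = 0.255), 1.29 at day 3 (SE 0.41, adjusted p = 0.0755) and 0.67 at day 7 (SE 0.40, adjusted p = 0.356), and none was called. The day 3 value rests on samples 1 and 2: without them it was 0.07 (adjusted p = 0.887), and without sample 4 alone it was 1.45 (adjusted p = 0.0141).

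Ftl1 (ENSMUSG00000050708, chr7:45457944-45459884), the light chain that aids the building of the iron core, was at 3652, 3219, 2576 and 3480 CPM in healthy LSECs and at 5232 and 4388 CPM at day 1. It was at 6449, 6894, 3283 and 2418 CPM at day 3 and at 4050, 4279, 3829 and 3215 CPM at day 7. The day 1 samples lay above the healthy samples, and the day 3 samples split between samples 1 and 2 and samples 3 and 4 as for Fth1. For Ftl1 the log2 fold change was 0.57 at day 1 (SE 0.35, adjusted p = 0.451), 0.56 at day 3 (SE 0.30, adjusted p = 0.292) and 0.25 at day 7 (SE 0.29, adjusted p = 0.673). Without day 3 samples 1 and 2 the day 3 value turned to -0.21 (adjusted p = 0.580). Fth1 CPM divided by Ftl1 CPM ran from 0.509 to 0.771 in healthy LSECs, was 1.01 and 0.678 at day 1, 1.28, 0.967, 0.746 and 0.717 at day 3, and ran from 0.630 to 0.915 at day 7.

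Markers of blood cells split the day 3 samples into the same pairs. The 12 monocyte and neutrophil markers summed to 13159.5, 8245, 1548 and 1428 CPM in day 3 samples 1 to 4, beside 553 to 1497 CPM in healthy LSECs, 8636 and 4517 CPM at day 1 and 4302 to 9778 CPM at day 7. Of these 12 markers 5 were called at day 1, 5 at day 3 and 1 at day 7, all higher. The 10 erythroid markers, of which 0 were called at day 1 and day 7 and 1 (Slc4a1, higher) at day 3, summed to 1131, 1293, 239 and 173 CPM in day 3 samples 1 to 4. In healthy LSECs they summed to 349 to 534 CPM, at day 1 to 265 and 93.3 CPM, below all healthy samples, and at day 7 to 274 to 973 CPM. The Kupffer cell and macrophage markers split day 3 into the same pairs (2508, 2306, 1089 and 1142 CPM), and the LSEC markers did so in reverse (12609, 13552, 16244 and 17946 CPM). The part of these cells in the ferritin levels was not tested.

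The count of Ftl1 itself is uncertain, because other rows overlap it or carry its name as copies. Gm22133, a 109-base gene annotated as a miRNA inside an Ftl1 exon (chr7:45458089-45458197), held 24.5% to 31.5% as many counts as Ftl1 in 12 samples, at 639 to 1875 CPM. In healthy sample 3 and day 1 sample 2 it held 1 count each. Ftl1-ps1, annotated as a protein-coding gene on chr13:74399694-74407346, was at 255 to 264 CPM in healthy LSECs, 383 and 366 CPM at day 1, 540, 504, 233 and 170 CPM at day 3 and 236 to 308 CPM at day 7. Its count was 7.05% to 10.0% as large as that of Ftl1 over the samples, and that of the processed pseudogene Ftl2-ps 2.68% to 3.83% as large. Summed with Gm22133, Ftl1-ps1 and Ftl2-ps, Ftl1 gave log2 fold changes of 0.48 at day 1, 0.62 at day 3 and 0.32 at day 7, with adjusted p from 0.271 to 0.596. In healthy sample 3 and day 1 sample 2, Gm22133 adds 1 count each to this sum. The sum is therefore uneven between samples and does not settle the Ftl1 level. Gm10252 also overlaps Ftl1 exons, on the other strand. The other rows named after ferritin, Fth-ps2, Fth-ps3, Ftl1-ps2 and the Fthl17 genes, did not share this level: Fth-ps2 reached 1.21 CPM, Ftl1-ps2 2.13 CPM and Fth-ps3 0.0568 CPM at most.

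**Figure D4:**
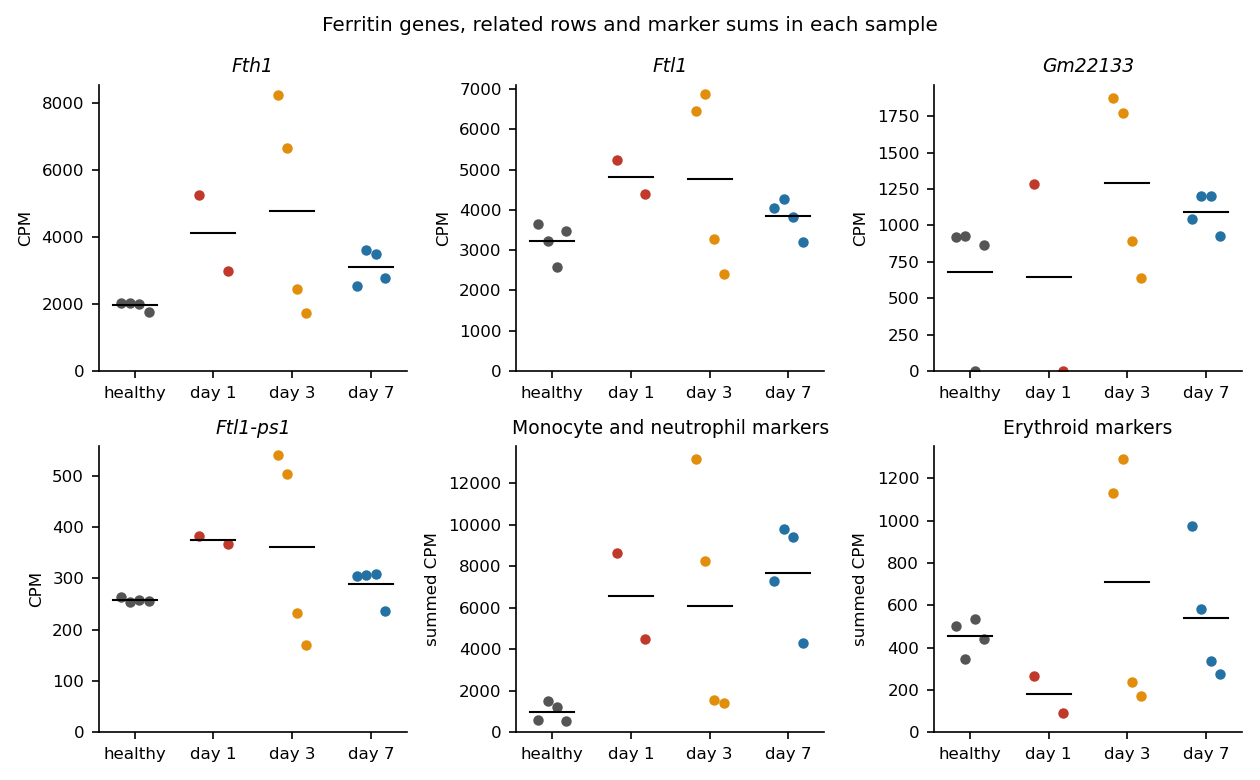
CPM of Fth1, Ftl1, Gm22133 and Ftl1-ps1, and summed CPM of 12 monocyte and neutrophil markers and 10 erythroid markers, in each sample (vertical axes from 0) by group. Points are samples and lines are group means, and at day 3 samples 1 and 2 (left) lie above samples 3 and 4 (right) in all panels, while Gm22133 is near 0 in healthy sample 3 and day 1 sample 2.

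Slc11a1 (NRAMP1, ENSMUSG00000026177, chr1:74375195-74386062), a phagosomal metal transporter known from macrophages and neutrophils, was at 5.10, 19.2, 27.95 and 20.4 CPM in healthy LSECs and at 64.1 and 35.3 CPM at day 1. At day 3 it was at 42.9, 39.3, 18.2 and 31.7 CPM, and at day 7 at 31.6, 35.5, 48.0 and 28.9 CPM. The day 1 and day 7 samples lay above all healthy samples, and the day 3 samples overlapped with them. The log2 fold change was 1.45 at day 1 (SE 0.49, adjusted p = 0.125), 0.86 at day 3 (SE 0.42, adjusted p = 0.248) and 0.99 at day 7 (SE 0.42, adjusted p = 0.200). The monocyte and neutrophil marker sums given with the ferritins also lay above those of healthy samples in every day 1 and day 7 sample, and their part in the Slc11a1 levels was not tested.

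Slc11a2 (DMT1, ENSMUSG00000023030, chr15:100387898-100425072), which moves iron out of endosomes after uptake by Tfrc, showed no detectable difference. It was at 15.7, 16.7, 19.6 and 17.6 CPM in healthy LSECs, 16.8 and 20.3 CPM at day 1, 12.5, 13.2, 20.4 and 22.8 CPM at day 3, and 17.4, 16.0, 16.6 and 20.0 CPM at day 7. The groups overlapped throughout, and at day 3 samples 1 and 2 lay below all healthy samples and samples 3 and 4 above them. The log2 fold change was 0.09 at day 1 (SE 0.26), -0.01 at day 3 (SE 0.21) and 0.01 at day 7 (SE 0.21), with adjusted p from 0.919 to 0.988. An exon of Slc11a2 overlaps Gm5475 on the other strand, so its count carries the same uncertainty as that of Cp. The same holds for 29 bases that Heph shares with Hsf3.

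Read without the test, the groups did not overlap in 7 of 9 members at day 1 (background 37.9% of the tested genes, with 2 samples against 4), all but Slc11a2 and Cp. They did not overlap in 3 of 9 at day 3 (background 14.4%), namely Slc40a1, Tfrc and Hfe, and in 3 of 9 at day 7 (background 20.8%), namely Fth1, Slc11a1 and Hfe.

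Between the days after injury no member passed the test. In the comparison of day 3 with day 1, 0 of 9 members were called by edgeR (background 2.54%), 2 had an unadjusted p under 0.05, and DESeq2 called 1 and limma-voom 0. Heph came nearest, with a log2 fold change of 0.91 (SE 0.29, adjusted p = 0.136), and it was called without day 3 samples 1 and 2 (1.28, adjusted p = 0.00447). Slc40a1 differed by -0.33 between these days (SE 0.26, adjusted p = 0.595). In the comparison of day 7 with day 3, 0 of 9 were called by edgeR (background 1.77%), 2 had an unadjusted p under 0.05, and DESeq2 called 1 and limma-voom 4. Slc40a1 was higher at day 7 by 0.91 on the log2 scale, just outside the threshold (SE 0.22, adjusted p = 0.0542), and it passed without day 3 sample 4 (1.12, adjusted p = 0.0169). Tfrc was lower at day 7 by a log2 fold change of -0.76 (SE 0.28, adjusted p = 0.191), with no overlap between the days.

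The wider iron pathway was described with 67 other genes in 5 lists, of which 66 were tested. At day 1, 5 were called higher and 1 lower, at day 3, 6 higher and 3 lower, and at day 7, 6 higher and 1 lower, beside 4.06%, 7.19% and 3.18% of all tested genes called in either direction. These shares of all genes are the background for each list that follows. They are no test of a list, since the lists were chosen with earlier results of these data known. At day 3, 1 call in a list of 12 to 21 genes is a share near that background and is no result about the list. The median log2 fold change of the 66 was -0.11, -0.22 and -0.04 on the 3 days, beside -0.03, 0.18 and 0.02 over all tested genes. The called genes lay mostly in 2 of the lists, that of other iron uptake and carriers and that of heme uptake, breakdown and export.

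Among 12 genes of other iron uptake and carriers, 3 were called higher and 1 lower at day 1, 5 higher and 1 lower at day 3, and 5 higher at day 7. Steap1, a member of the six-transmembrane metalloreductase family, was at 0.0687 to 0.170 CPM in healthy LSECs, 26.1 and 12.2 CPM at day 1, 9.90 to 11.2 CPM at day 3 and 1.04 to 4.07 CPM at day 7. Its log2 fold change was 7.36 at day 1 (SE 0.56, adjusted p = 2.01e-05), 6.47 at day 3 and 4.19 at day 7, and the day 1 value was 6.69 without day 1 sample 1. The reductase Steap2 rose from 1.06 to 2.36 CPM in healthy LSECs to 41.3 and 28.8 CPM at day 1, with log2 fold changes of 4.41, 4.37 and 3.61 on the 3 days (adjusted p 2.01e-05, 2.78e-05 and 0.000401). No sample of either gene after injury overlapped with the healthy samples, and both were called in every alternative that tested them. The filter of 10 counts in every sample left Steap1 out, so the size of its fold changes rests on few counts in healthy LSECs. Steap3, the endosomal reductase that acts after transferrin uptake, rose by 1.94 at day 3 and 2.39 at day 7, and Steap4 by 2.62 and 2.95, on the log2 scale, with adjusted p from 0.0212 to 0.0302. All 4 calls were lost without healthy sample 1, 2 or 3, and that of Steap3 at day 3 also with no filter or the 2 groups alone (adjusted p = 0.0536 and 0.0865). Without healthy sample 4, which held the most hepatocyte marker RNA of the healthy group, Steap3 stood at 3.06 at day 7 and Steap4 at 3.39 and 3.85. The hepatocyte markers of the remaining healthy samples summed to 261 to 495 CPM, against 1047 to 3597 CPM at day 3 and 993 to 7784 CPM at day 7. Stellate cell marker sums, given with Lrp1 below, also lay higher in every day 3 and day 7 sample than in any healthy sample. The part of these cells in the Steap3 and Steap4 levels was not tested. Both day 3 calls were also lost without day 3 sample 1 and both day 7 calls without day 7 sample 2 or 3, as was Steap3 at day 3 without day 3 sample 2 and Steap4 at day 7 without day 7 sample 4 (adjusted p 0.0519 to 0.0993 over these). The day 3 calls were lost without day 3 samples 1 and 2 together as well (adjusted p = 0.0979 and 0.0659), and Steap4 overlapped with healthy LSECs at day 7.

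Lcn2, a secreted protein that binds bacterial iron carriers, was at 2.57 to 3.50 CPM in healthy LSECs, 280 and 141 CPM at day 1, 11.2 to 179 CPM at day 3 and 6.79 to 83.8 CPM at day 7. Its log2 fold change was 6.09 at day 1 (SE 1.00, adjusted p = 0.00401), 4.604 at day 3 (adjusted p = 0.00881) and 3.57 at day 7 (adjusted p = 0.0397), and without day 3 samples 1 and 2 the day 3 value was 2.59 (adjusted p = 0.0493). The day 7 call was lost without day 7 sample 2 (2.76, adjusted p = 0.134) or any 1 healthy sample (adjusted p 0.0532 to 0.118). Leaving out day 1 sample 1 took the day 1 value to 5.48, and leaving out day 3 sample 2 took the day 3 value to 3.73. The monocyte and neutrophil marker sums, given with the ferritins, lay higher in both day 1 samples than in any healthy sample and split day 3 into the same pairs as Lcn2, and their part in the Lcn2 levels was not tested. Slc39a8, a metal importer of the ZIP family, was the 1 gene of this list called lower. It was at 301 to 336 CPM in healthy LSECs, 87.4 and 79.3 CPM at day 1, 56.6 to 185 CPM at day 3 and 111 to 183 CPM at day 7, with log2 fold changes of -1.95 (SE 0.40, adjusted p = 0.0136), -1.43 (SE 0.30, adjusted p = 0.0131) and -1.06 (SE 0.30, adjusted p = 0.0697). The day 1 call was lost without either day 1 sample (adjusted p = 0.253 and 0.167), and the day 3 call with the 2 groups alone (adjusted p = 0.0531). The related importer Slc39a14 lay at 4.48 to 14.3 CPM in healthy LSECs and was not called, and the plasma carrier Trf lay at 72.9 to 2351 CPM there, with healthy sample 4 highest, and was not called.

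**Figure D5:**
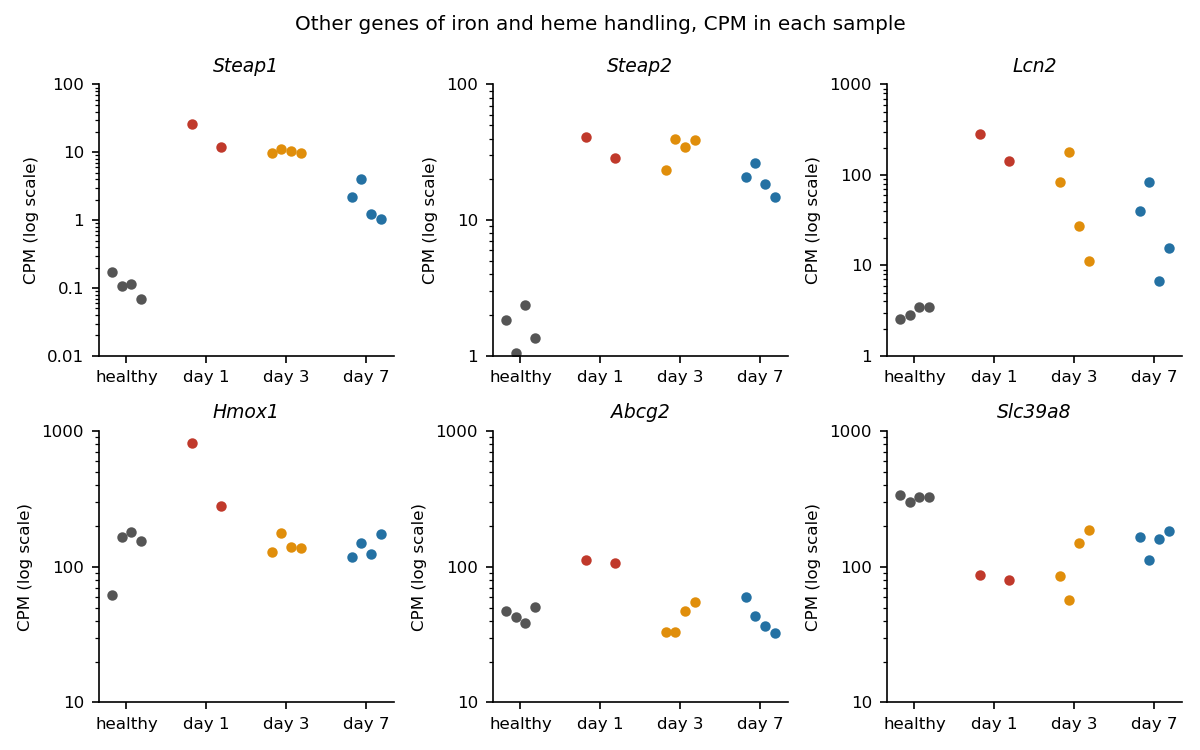
CPM on a log scale (vertical axes) of 6 other genes of iron and heme handling in each sample (points) by group. Steap1, Steap2 and Lcn2 lie above healthy LSECs in every injured sample, Slc39a8 lies below, and Hmox1 and Abcg2 lie above healthy LSECs at day 1.

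Among 12 genes of heme uptake, breakdown and export, 2 were called higher at day 1 and 1 at each of days 3 and 7, and none lower. Hmox1, the inducible heme oxygenase that frees iron from heme, was at 61.6 to 179 CPM in healthy LSECs, at 815 and 280 CPM at day 1, at 128 to 177 CPM at day 3 and at 118 to 173 CPM at day 7. Its log2 fold change at day 1 was 1.96 (SE 0.40, adjusted p = 0.0133), which dropped to 0.96 without day 1 sample 1 (adjusted p = 0.646), and the call was also lost with the 2 groups alone (adjusted p = 0.0718). The Kupffer cell and macrophage markers, given with Slc40a1, summed to 2884 CPM in day 1 sample 1 and to 1399 CPM in day 1 sample 2, and healthy sample 1 was lowest in both that sum and Hmox1. Their part in the Hmox1 level was not tested. The porphyrin exporter Abcg2 rose at day 1 by 1.29 (SE 0.26, adjusted p = 0.0122), from 38.3 to 50.1 CPM in healthy LSECs to 112 and 106 CPM, and the call was lost without either day 1 sample (adjusted p = 0.300 and 0.126). Lrp1, a receptor that takes up heme bound to hemopexin among many ligands, rose by 2.72 at day 3 (SE 0.55, adjusted p = 0.0110) and 2.68 at day 7 (SE 0.55, adjusted p = 0.0207), and the day 7 call was lost without healthy sample 1, 2 or 3 or day 7 sample 2 (adjusted p 0.0562 to 0.0710). Lrp1 was at 11.1 to 44.2 CPM in healthy LSECs and at 60.4 to 147 CPM at day 1, where it was not called. Stellate cells, which are known to express Lrp1, had 9 of 12 markers called higher at day 3 and 10 of 12 at day 7. Their marker sums were 139 to 266 CPM in healthy LSECs, 510 to 1550 at day 3 and 289 to 3907 at day 7. At day 1 none of the 12 was called. The day 1 sums, 122 and 105 CPM, lay below all healthy samples, while Lrp1 lay above them. The part of stellate or other cells in the Lrp1 level was not tested. The heme transporter Slc48a1 lay at 75.4 to 111 CPM in healthy LSECs, 63.7 and 57.9 CPM at day 1, 46.8 to 97.4 CPM at day 3 and 77.7 to 88.0 CPM at day 7, and was not called.

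Of 21 genes of hepcidin regulation, 0 were called by edgeR at day 1 and day 7 and 1 at day 3. This was Smad7, an inhibitor of BMP signalling, with a log2 fold change of -0.63 at day 3 (SE 0.15, adjusted p = 0.0259), from 90.7 to 119 CPM in healthy LSECs to 58.9 to 78.7 CPM; the call was lost without healthy sample 1, 2 or 3 or day 3 sample 2 (adjusted p 0.0586 to 0.0849). The hepcidin inducer Bmp6 was at 156 to 195 CPM in healthy LSECs, 51.6 and 77.0 CPM at day 1, 41.1 to 173 CPM at day 3 and 66.9 to 94.8 CPM at day 7. Bmp2, the other endothelial inducer, was at 1883 to 2321 CPM in healthy LSECs, 1368 and 1570 CPM at day 1, 827 to 1922 CPM at day 3 and 998 to 1251 CPM at day 7. Neither was called (adjusted p 0.0816 to 0.483). At day 1 and day 7 both lay below healthy LSECs in every sample, while 37.9% and 20.8% of all tested genes did not overlap on these days. The LSEC marker sums, given above, were also lower in every injured sample, and their part in the Bmp6 and Bmp2 levels was not tested. Hamp, which encodes hepcidin in hepatocytes, was at 2.31 to 61.9 CPM in healthy LSECs and at 0.490 and 0.914 CPM at day 1, and its hepatocyte partners Hjv (annotated as Hfe2) and Tfr2 reached 5.89 and 29.9 CPM in healthy LSECs. None of these 3 was called against healthy LSECs. Hamp was at 14.3 to 83.4 CPM at day 3 and 31.2 to 71.7 CPM at day 7. Hjv reached 3.73 and 6.81 CPM on these days, and Tfr2 8.48 and 20.7 CPM. The hepatocyte marker sums, given with Cp, were lowest at day 1 and highest in healthy sample 4. The highest single sample of Tfr2 was a healthy one, that of Hamp was from day 3 and that of Hjv from day 7. By group mean each of these genes was highest at day 7. Mean Tfr2 was 10.2 CPM at day 7 and 7.98 CPM in healthy LSECs, and mean Hamp was 47.5 CPM at day 7 and 43.3 CPM at day 3. The part of hepatocytes in these levels was not tested.

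None of the 6 genes of iron sensing and ferritin turnover was called by edgeR against healthy LSECs. Aco1 and Ireb2, which encode the proteins that bind the iron-responsive elements printed above, lay at 26.2 to 45.1 and 26.4 to 34.5 CPM in healthy LSECs and at 20.1 to 42.7 and 20.2 to 33.4 CPM after injury. Ncoa4, the receptor that takes ferritin to lysosomes, lay at 22.2 to 39.2 CPM in healthy LSECs, 74.4 and 29.8 CPM at day 1, 22.5 to 67.9 CPM at day 3 and 30.4 to 38.0 CPM at day 7. Fbxl5, which marks iron regulatory protein 2 for breakdown when iron is present, lay at 46.1 to 51.0 CPM in healthy LSECs and at 85.0 and 69.0 CPM at day 1, with a log2 fold change of 0.68 (SE 0.18, adjusted p = 0.0554). Of 15 tested genes of mitochondrial iron and heme synthesis, 1 was called at day 3 (Fech, -0.54, SE 0.14, adjusted p = 0.0342) and 1 at day 7 (Alad, -0.74, SE 0.18, adjusted p = 0.0409), both enzymes of heme synthesis and both lower. The Fech call was lost without any 1 healthy sample or day 3 sample 1 or 2 (adjusted p 0.0625 to 0.0918), without both of these together (adjusted p = 0.0838), and with library size only or the 2 groups alone (adjusted p = 0.114 and 0.0567). The Alad call was lost without any 1 of the samples but day 7 sample 1 (adjusted p 0.0687 to 0.148), and with RLE or library size only (adjusted p = 0.0502 and 0.0840).

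The 2 genes whose log2 CPM was most like that of each member over the 14 samples are given as a description, since the samples share groups, depth and admixed cells. Slc40a1 was most alike to Tmcc2 (Pearson's r = 0.927, Spearman's rho = 0.912) and Rab27a (0.926 and 0.877). Tfrc was most alike to Ppp1r18os (0.922 and 0.930) and Tnfaip3 (0.922 and 0.938), Hfe to Ppt1 (0.941 and 0.952) and Gm12430 (0.927 and 0.890), and Heph to Igfbp4 (0.962 and 0.855) and Kdr (0.956 and 0.859), the latter a gene on the LSEC marker list. Fth1 was most alike to Rgs2 (0.951 and 0.947) and Tyrobp (0.947 and 0.947), and Ftl1 to the processed pseudogenes Gm15590 (0.954 and 0.947) and Ftl2-ps (0.952 and 0.952). Slc11a1 was most alike to Cd300a (0.929 and 0.938) and Hk3 (0.929 and 0.912), Slc11a2 to Nectin2 (0.930 and 0.859) and Plod1 (0.925 and 0.859), and Cp to C3 (0.977 and 0.956) and Qprt (0.968 and 0.943). Among the members themselves, Fth1 and Ftl1 were most alike (Pearson's r = 0.91). Ftl1 stood opposite to Slc11a2 (-0.818) and Heph (-0.772), and so did Fth1 (-0.734 and -0.731). Slc11a1 stood opposite to Heph (-0.635), and Slc40a1 opposite to Fth1 (-0.632), Ftl1 (-0.63) and Tfrc (-0.616).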

How the data were processed

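Read counts are the only values used. The authors aligned the reads to GRCm38 with STAR, ran StringTie, and deposited a table of unnormalized counts, with Ensembl genes down and the 14 samples across. The annotation release, strand setting and the way whole numbers were made after StringTie are not given in the sources used here. Groups came from the sample labels. Symbols, positions and exon lengths came from GENCODE vM21, which held 54409 of the 54524 genes.

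Genes were kept by filterByExpr (minimum count 10, minimum total 15) and tested in edgeR 4.0.16 (R 4.3.3) with TMM scaling and the quasi-likelihood test, fitting 4 group means to all 14 samples because day 1 has 2. Adjusted p is Benjamini-Hochberg over 26626 genes (threshold 0.05), and the standard error is the absolute log2 fold change over the square root of F. A prior count of 2 enters log2 CPM. Fewer than 3 counts were read as not detected. Reads were amplified without molecular identifiers, so that floor is one of counting error only. Other fits used DESeq2 1.42.0, voom with sample weights from limma 3.58.1, other scalings (RLE, library size only), other filters (none, or 10 counts in every sample), the 2 groups alone, a block for sample number, and 1 sample left out at a time. Summing Ftl1 with rows that share its sequence and dropping day 3 samples 1 and 2 were added after the data were seen.

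The members and lists were chosen with earlier results of these data known. The text names all members, 14 fixed genes of the wider lists, the 3 largest called rises and falls per comparison with healthy LSECs, rows named after ferritin, and the 2 genes most alike to each member. Genes named beyond this rule, chosen after their values were seen, are those called in a list or between days. The comparison between days of 1 gene of the wider lists is not reported here.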

Additional observations from a re-analysis of the deposited data

Results flagged for a closer look

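Cp in healthy sample 4, at 97.6 CPM, was far from the other 3 healthy samples: its gap to the next sample was 0.941 of the range of the group, over Dixon's critical value at 95% for 4 samples. Of 27 groups of 4 tested over the 9 members this was the only one past that value, and chance passes about 1 in 20. Between day 1 and day 3 and between day 3 and day 7 the test of the difference itself passed for the genes of the wider iron lists given next and for no member. From day 1 to day 3, Hamp was higher at day 3 by 5.94 on the log2 scale (adjusted p = 0.0444, 0.490 and 0.914 CPM at day 1 against 14.3 to 83.4 CPM at day 3), with hepatocyte marker sums of 45.2 and 176 CPM at day 1 and 1047 to 3597 CPM at day 3. Fbxl5 differed by -1.09 (adjusted p = 0.00913), Hmox1 by -1.91 (adjusted p = 0.0241) and Abcg2 by -1.38 (adjusted p = 0.0151), each lower at day 3. From day 3 to day 7, Smad7 differed by 0.72 (adjusted p = 0.0343) and Steap1 by -2.28 (adjusted p = 0.0200). These p-values are from edgeR's quasi-likelihood test, and the part of other cells in them was not tested.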

How the results depend on the processing

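At the threshold of 0.05, 3 of 9 members were called at day 1, 3 at day 3 and 0 at day 7 against healthy LSECs, and 0 in each comparison between days. DESeq2 called 5 at day 3 and 1 in each of day 7 against healthy, day 3 against day 1 and day 7 against day 3. Limma-voom called 7 at day 1, 7 at day 3, 5 at day 7 and 4 for day 7 against day 3. Library size only gave 1 at day 1 and 1 at day 3, no filter gave 1 at day 1, the 2 groups alone gave 1 at day 7 (Fth1), and 10 counts in every sample gave 1 for day 7 against day 3 (Slc40a1). Leaving out day 3 samples 1 and 2 gave 1 at day 3 (Slc40a1) and 1 for day 3 against day 1 (Heph). With each sample left out in turn the count was 0 to 2 (day 1), 1 to 4 (day 3), 0 to 1 (day 7) and 0 to 1 (day 7 against day 3). The direction turned for Ftl1 at day 3 without day 3 samples 1 and 2 (-0.21), and for Slc11a2 at day 3 with library size only (0.059) or without those samples (0.29) and at day 7 with no filter (-0.12). With 1 sample left out, log2 fold changes ran from -0.074 to 0.19 (day 1), -0.26 to 0.12 (day 3) and -0.05 to 0.074 (day 7) for Slc11a2, and from -1.59 to 0.15 for Cp at day 1. The cause was not tested in any of these. With the sample number as a replicate block, 53 values were refitted, including values that were not called and so had no call to lose. Of them 8 lost their call, 0 gained one and 0 changed sign. Among the members these were Slc40a1 at day 1 (-0.92, adjusted p = 0.129) and Tfrc at day 3 (0.97, adjusted p = 0.105). In the wider lists they were Hmox1 and Abcg2 at day 1 (adjusted p = 0.0590 and 0.0514), Smad7 and Fech at day 3 (0.0599 and 0.0663), and Lcn2 and Alad at day 7 (0.0771 and 0.0760). The pairing was not borne out: deviations of the 18 same-numbered pairs correlated at -0.232 to 0.096. Over all genes, 1080 were called at day 1 (164 to 4308 over the alternatives), 1915 at day 3 (946 to 7265) and 846 at day 7 (193 to 7047). Day 3 against day 1 gave 676 (49 to 3344), and day 7 against day 3 gave 472 (1 to 6002). Each upper count is from limma-voom. With library size only, 75.1% of calls at day 3 and 86.8% at day 7 were higher, against 64.2% and 68.8% with TMM. Day 1, with 2 samples, limits every comparison that uses it.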
